A study of Mus musculus with 25 samples.

Results

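The cells described here are 427 wild-type (WT) mouse testis cells that the deposited cell table places in its leptotene-zygotene spermatocyte cluster, here called L_Z cells, out of 4528 cells in all. They were chosen by that cluster name alone. All 427 came from the single WT library of 1151 cells, and 0 came from either Ythdc2 knockout (KO) library. The study is about YTHDC2, a helicase that binds RNA and without which germ cells fail to leave mitosis properly for meiosis. Its single-cell experiment holds 1 WT sample and 2 KO samples of cells sorted for a 4N DNA content at postnatal day 10. The titles of these samples also carry the word embryo, and the age label was followed. The labels name the hybrid background B6D2F1 (C57BL/6 and DBA/2) for the lines with altered helicase or YTH domains. For the KO line they refer to earlier work, and its background and the part of Ythdc2 it lacks are not given here. A 4N sort keeps cells that have copied their DNA, both dividing spermatogonia and meiotic cells, so the shares of clusters describe the sort.

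Leptotene and zygotene are the opening stages of meiotic prophase. In leptotene the chromosomes condense onto protein axes built on meiotic cohesins, and SPO11 cuts the DNA. In zygotene the strand exchange proteins carry the cut ends to the homologous chromosome, telomeres attach to the nuclear envelope, and the synaptonemal complex begins to join the paired homologues. Cells enter this program from differentiating spermatogonia through the retinoic acid target STRA8 and its partner MEIOSIN, while the genes of mitotic division are held back.

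Levels are given as unique molecular identifiers (UMIs, tags that count captured RNA molecules) per 1000000 UMIs of the summed cells (CPM), with exact 95% Poisson intervals. CPM was not divided by transcript length. The L_Z cells held 5433721 UMIs, so that 1 UMI equals 0.184 CPM. The lowest cell held 6845 UMIs, the median 12210 and the highest 26292, and the median cell showed 3950 genes. The mitochondrial share had a median of 5.50%, from 2.39% to 13.4%. The WT library held 16342955 UMIs. The KO libraries, called A and B here because neither could be tied to a particular KO sample, held 18089957 and 25447581. No cell barcode was shared between libraries (0). Of the L_Z cells, 1 was called a doublet, and none (0) reached 10 UMIs over the myoid, stromal and globin markers. Ythdc2 itself stood at 266 CPM in L_Z cells (252 to 280), at 47.8 CPM in the mixed clusters of KO A and at 44.2 CPM in those of KO B. Its UMIs were given as 1 count per gene, so this does not locate the deletion.

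The rest of the table offered 2 kinds of comparison. The first was with the 654 WT cells of the cluster that the authors call differentiating spermatogonia. The second was with the KO cells in 2 clusters whose names mix differentiating spermatogonia and leptotene-zygotene cells, with 927 cells in the first KO library and 951 in the other. Because the genes of a cell also place it in its cluster, and because there is 1 WT library, no difference between clusters was tested. All ratios are descriptions of these libraries, and their exact intervals cover counting error only.

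The 5 marker genes set for these cells were each higher in L_Z cells than in WT differentiating spermatogonia. Meiob, which encodes a single-strand DNA binding protein of meiotic recombination, stood at 52.8 CPM (46.9 to 59.3) against 2.06. Rad21l, a meiotic cohesin subunit, stood at 149 CPM (139 to 160) against 11.8. Rad51ap2, a gene of the strand exchange list, stood at 121 CPM (112 to 131) against 3.20. Figla, a transcription factor best known from oocytes, stood at 129 CPM (120 to 139) against 15.6. Spo11, which encodes the enzyme that cuts meiotic DNA, was the lowest of the 5, at 20.4 CPM (16.8 to 24.6) against 2.78. In the mixed clusters of the KO libraries, Meiob stood at 10.4 (A) and 7.51 CPM (B), and Spo11 at 1.43 and 2.29. Since the cells were clustered on their expression, these levels describe the cluster and are no test of its name. In RefSeq (GRCm38.p6) these genes lie at chr17:24804301-24839788 (Meiob), chr2:151644366-151670622 (Rad21l), chr12:11456023-11463153 (Rad51ap2), chr2:172977379-172993576 (Spo11) and chr6:86016494-86020996 (Figla).

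**Figure D1:**
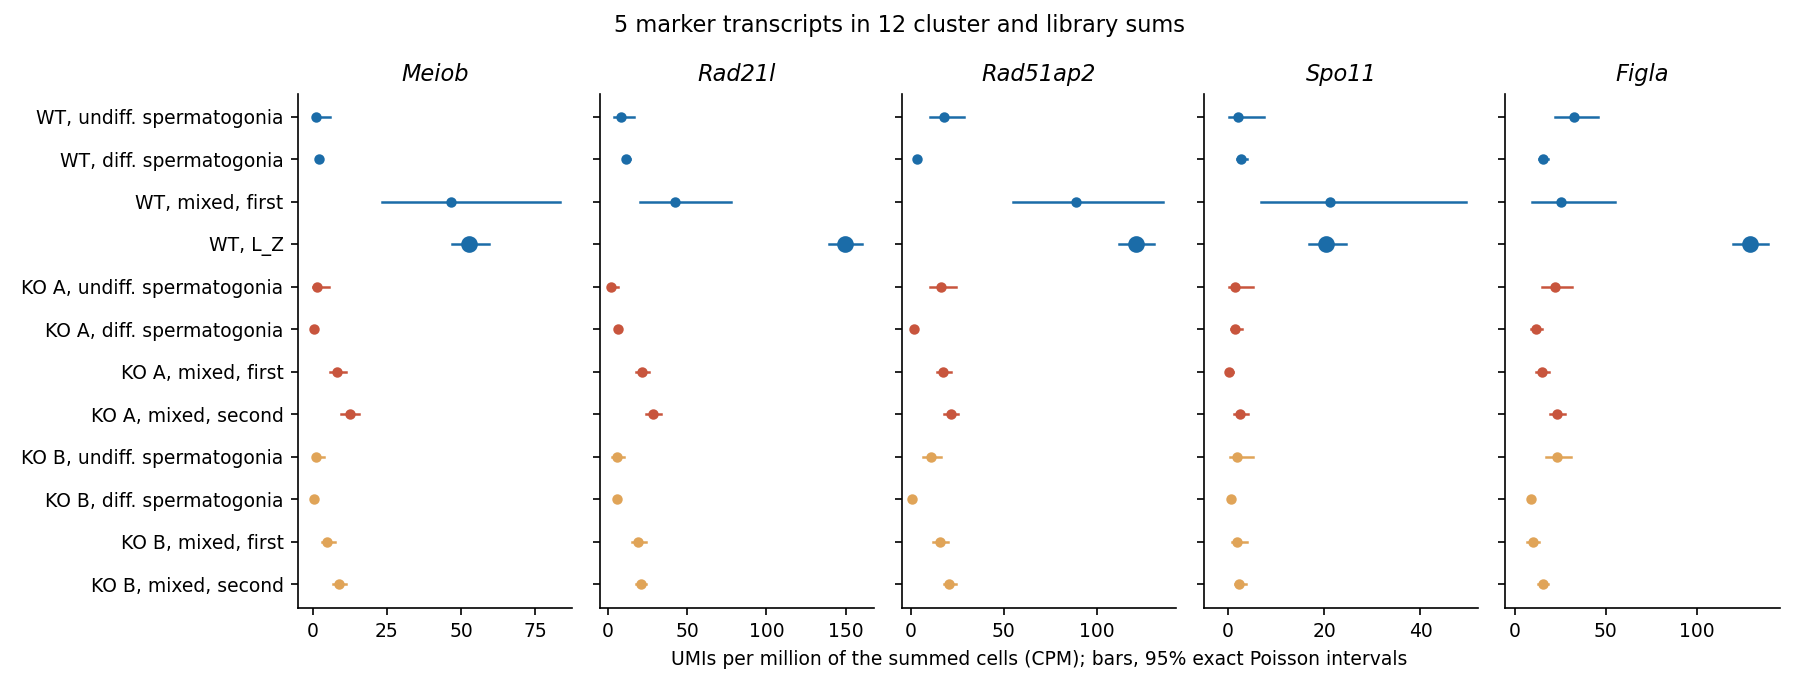
Levels of the 5 marker transcripts (CPM, linear axis) in 12 sums of cells by library and cluster, with 95% exact Poisson intervals as bars. The large points are the L_Z cells. Rad21l and Figla stand apart there, at 149 and 129 CPM, while the sum of 24 WT cells of the first mixed cluster overlaps the L_Z cells for Meiob, Rad51ap2 and Spo11.

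Of the 12 sums of cells by library and cluster with at least 20 cells, the one nearest to the L_Z cells for 4 of these markers was the first mixed cluster in WT. It held only 24 cells, with Meiob at 46.6 CPM, Rad51ap2 at 89.0, Spo11 at 21.2 and Rad21l at 42.4. The ratio of the L_Z cells to that sum was 1.13 for Meiob (exact interval 0.624 to 2.30), 1.36 for Rad51ap2 (0.884 to 2.22) and 0.964 for Spo11 (0.401 to 3.03), so for these 3 the intervals include 1. For Rad21l it was 3.53 (1.91 to 7.38). These 24 cells had a median mitochondrial share of 12.3%, and 2 of them were called doublets. The part of either in these ratios was not tested. For Figla the nearest sum was the WT undifferentiated spermatogonia, at 32.4 CPM, a ratio of 3.98 (2.78 to 5.90).

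Single cells showed few molecules of each marker. After each cell was thinned to 5000 UMIs, which kept all 427, Rad21l had a UMI in 49.6% of L_Z cells, Figla in 46.4%, Rad51ap2 in 43.3%, Meiob in 23.2% and Spo11 in 7.73%. Without thinning these shares were 77.5%, 71.7%, 64.6%, 42.9% and 19.0%. In thinned WT differentiating spermatogonia, the same shares were 5.81%, 5.96%, 1.68%, 0.765% and 1.22%. In the 45 WT undifferentiated spermatogonia, which should lack Meiob and Spo11, these 2 were each seen in 0 cells (the upper limit for a count of 0 is 6.67%), and Rad21l in 4.44%. Rad51ap2 and Figla were seen in 6.67% and 11.1% of them. At least 1 of the 5 markers was seen in 367 of 427 L_Z cells (85.9%), at least 2 in 242 and all 5 in 2, against 95, 6 and 0 of 654 differentiating spermatogonia. The 60 L_Z cells with none of the 5 are a count at this depth, not cells shown to lack them.

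The most abundant transcripts of the L_Z cells came from general and germ cell genes together. Leaving out mitochondrially encoded genes (5.54% of UMIs) and ribosomal protein genes (13.1%), the first places went to H3f3b, which encodes a replacement histone H3, at 4152 CPM, and Ptma, prothymosin alpha, at 3976 CPM. Npm1, a nucleolar protein, followed at 2622 CPM. Several of the next places were held by germ cell and meiotic genes. Tex101, a germ cell surface protein, stood at 2505 CPM against 949 in WT differentiating spermatogonia, and Dazl, a germ cell RNA-binding protein, at 2152 against 1408. Smc1b, a meiotic cohesin subunit, stood at 1851 CPM against 730. Sycp1, the transverse filament of the synaptonemal complex, stood at 1669 CPM against 1246, and Stra8 at 1658 CPM against 329. The other 12 of the 20 most abundant were Ppia, Hspa5, Ncl, Hspa8, Ubb, Hmgb2, Malat1, Hsp90aa1, Eef1a1, Tubb4b, Gm42418 and Smarca5, from 2524 CPM down to 1576. The 10 most abundant of all genes held 6.88% of UMIs and the top 100 held 23.8%, while 639 genes held 50% of them. In all, 13256 genes had a UMI and 6098 reached 20 CPM.

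Specificity was measured as the level in L_Z cells over the highest level in any of the 11 other sums. Of 3970 genes at 50 CPM or more in L_Z cells, 38 (0.957%) were at least 2-fold above every other sum. Leaving out the sum of 24 WT cells raised this count to 87, with Eaf2, an elongation factor partner, first at 7.10-fold, Rad51ap2 at 5.69 and Meiob at 4.27. With all sums in, the first place went to H2-Ab1, the beta chain of an MHC class II molecule that presents peptides to T cells. It stood at 113 CPM (105 to 123), with 3.40 CPM in WT differentiating spermatogonia, 21.2 in the WT first mixed cluster and 24.4 in the next highest sum, the second mixed cluster of KO A, a ratio of 4.65 (3.85 to 5.64). A thinned UMI of H2-Ab1 was seen in 44.0% of L_Z cells and in 1.68% of differentiating spermatogonia. Figla (3.98-fold) and Nacad (3.97-fold), a relative of a nascent chain binding factor, came next.

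Among the 20 most specific genes, those of the meiotic chromosome formed the group with the clearest roles. Rad21l stood 3.53-fold above the nearest sum. Terb1, which fixes meiotic telomeres to the nuclear envelope, stood at 134 CPM (124 to 144), 3.50-fold above it. Spdya, a CDK2 activator at meiotic telomeres, stood at 227 CPM and 2.32-fold above it. Syce3 and Tex12, central element proteins of the synaptonemal complex, stood at 291 and 683 CPM, 2.85-fold and 2.35-fold above the nearest sum. Fbxo47, an F-box protein needed in meiotic prophase, stood at 89.6 CPM and 3.02-fold above it. Genes outside this group were also among the 20. Pparg, a nuclear receptor of fat cells, stood at 74.2 CPM against 2.78 in WT differentiating spermatogonia. Aldh1a2, which makes retinoic acid, stood at 149 CPM against 51.6. Slc25a42, a mitochondrial carrier, stood at 82.4 CPM against 15.4. The others were BC049762, Cbwd1, Hspb11, Tc2n, Mlf1, Atf7ip2, Dmrtc2 and Tsga10, between 2.31-fold and 2.83-fold above the nearest sum.

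The promoters of the 20 most specific genes were searched for 4 short motifs, since these genes were high in the same cells. RefSeq promoters (GRCm38.p6, 250 bases before to 50 after a start) were matched by symbol for 17 of the 20 genes. The motif CNCCTCAG, which STRA8 binds, was found on either strand in 6 of these 17, namely Figla, Slc25a42, BC049762, Pparg, Tex12 and Spdya. In Slc25a42, Tex12 and Spdya no match lay wholly before the start. The motif CNCCTCAG was in 7.94% of all 32851 promoters, in 12.5% of the 5714 matched genes among those at 20 CPM or more in either WT cluster, and in 23.6% (167 of 709) of the matched genes at least 2-fold higher in L_Z cells than in WT differentiating spermatogonia. A gene counted where any of its promoters held the motif. The cyclic AMP response element TGACGTCA was in 3.95% of the 2-fold higher genes against 4.39% of that wider set, the E-box CACGTG in 10.2% against 13.3%, and the E2F motif TCCCGC in 44.7% against 44.3%. Of the 17 matched specific genes, 2 held the response element, 1 the E-box and 8 the E2F motif. The motif searches were independent, so overlapping matches of different motifs were each counted, and a match is a description of letters and not a bound site. The stretches below are shown because they carry the STRA8 motif or the cyclic AMP response element upstream of a specific gene, with the motif in capitals. The BC049762 and Pparg windows belong to starts with 1 or 2 further starts in the table, and the Figla start lies inside the annotated gene, so only the site is shown.
Figla, chr6:86017091-86017120, plus strand: gccccgcccCTCCTCAGctcatgccccgcc
Pparg, chr6:115361044-115361143, plus strand: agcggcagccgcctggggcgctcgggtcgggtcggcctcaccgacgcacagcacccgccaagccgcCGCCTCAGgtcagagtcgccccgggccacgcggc
BC049762, chr11:51263058-51263157, minus strand: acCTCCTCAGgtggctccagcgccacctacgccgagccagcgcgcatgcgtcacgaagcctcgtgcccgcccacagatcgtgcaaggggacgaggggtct
Mlf1, chr3:67373997-67374096, plus strand: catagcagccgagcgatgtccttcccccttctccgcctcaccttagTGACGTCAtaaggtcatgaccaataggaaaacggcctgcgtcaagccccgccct
In Figla the motif began 91 bases before the start, in BC049762 98 and in Pparg 34. The response element of Mlf1, a gene at 403 CPM in L_Z cells and 152 in WT differentiating spermatogonia, began 54 bases before the start.

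Against WT differentiating spermatogonia, 842 of 6952 genes at 20 CPM or more in either cluster were at least 2-fold higher in L_Z cells (12.1%) and 1088 at least 2-fold lower (15.7%). The median log2 ratio over these genes was -0.10, and dividing by that median gave 960 higher and 920 lower. The genes with the 15 largest ratios were led by Rad51ap2, 37.9-fold higher (exact interval 26.5 to 56.3), H2-Ab1 at 33.3-fold (23.5 to 48.8) and Nacad at 28.4-fold (18.1 to 47.1). Pparg and Meiob followed at 26.6-fold and 25.6-fold. Spdya stood at 20.6-fold and Pbx3, a homeobox factor, at 16.9-fold, with 296 against 17.5 CPM. H2-D1, an MHC class I heavy chain, stood at 16.7-fold, with 234 against 14 CPM, and it stood at 168 CPM in WT undifferentiated spermatogonia and 119 in the WT first mixed cluster. Lmna, which encodes lamins A and C, stood at 18.2-fold, with 91.8 against 5.05 CPM, but it stood at 69.1 CPM in WT undifferentiated spermatogonia and at 99.7 in those of KO A. Among these undifferentiated spermatogonia, 10 of 45 cells in WT and 10 of 66 in KO A reached 10 UMIs over the myoid, stromal and globin markers. The part of such cells in the H2-D1 and Lmna levels was not tested. The other 6 of the 15 genes were Aph1b, Fbxo47, 1700028K03Rik, Rbpms2, Terb1 and Rad21l. Around the threshold, Cwc15 was just inside at 2.00-fold and Snx15 just outside at 1.999-fold.

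The 15 lowest ratios held genes of cell division beside genes of other roles. Gm1141, a predicted gene on the X chromosome, stood at 2.39 CPM (1.27 to 4.09) against 71.1. Dmrtb1, a spermatogonial transcription factor, stood at 18.8 CPM against 201. Ccnb1, the mitotic cyclin, stood at 51.3 CPM against 504, and Plk1, a kinase of mitosis, at 41.0 against 401. Bub3, a spindle checkpoint protein, stood at 20.1 CPM against 240, and Aurkb, a kinase of chromosome segregation, at 14.5 against 131. Trp53, which encodes p53, stood at 6.63 CPM against 58.4. The other 8 were Nfic, Runx3, Egln1, Ccng1, Rab6b, Aspm, Gga2 and Reep4, from 0.0775 to 0.148 of the level in WT differentiating spermatogonia.

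**Figure D2:**
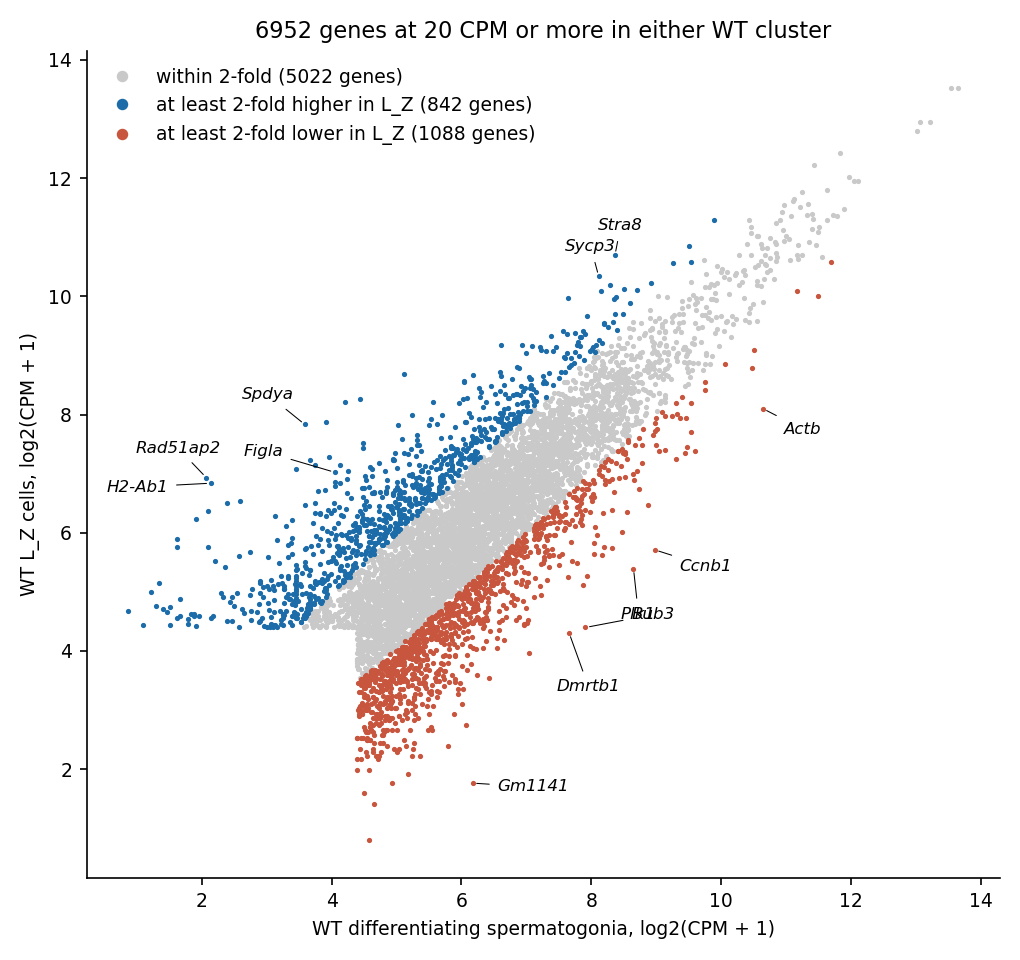
Level of each of 6952 genes in WT L_Z cells against WT differentiating spermatogonia, both as log2(CPM + 1). The 842 genes at least 2-fold higher are blue, with Rad51ap2 and H2-Ab1 far from the diagonal, and the 1088 at least 2-fold lower are red, with Ccnb1, Plk1 and Gm1141 below.

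The gene lists were read in the order of the steps of meiotic prophase, with the 12.1% higher and 15.7% lower of all genes tested as the background. Counts are given over the tested members, those at 20 CPM or more in either cluster, and list medians over the members with a UMI in both. Over the 13036 genes with a UMI in both clusters, the median log2 ratio was -0.13. Of 8 tested meiotic entry regulators (10 measured), 4 were at least 2-fold higher in L_Z cells and 0 lower, with a median log2 ratio of 1.39. Stra8 was 5.04-fold higher (4.84 to 5.25). Gm4969, the gene of the STRA8 partner MEIOSIN, stood at 83.9 CPM against 22, and Zfp541, a factor of later prophase, at 29.8 against 5.67. Rec8, a meiotic cohesin subunit, stood at 62.9 CPM against 109. Of the 4 genes of the YTHDC2 complex and its RNA-binding partners, 0 were past 2-fold either way: Ythdc2 stood at 266 CPM against 170, Meioc at 699 against 490, Rbm46 at 257 against 268, and the exonuclease gene Xrn1 at 43.8 against 68.3.

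Of 11 tested genes of the double-strand break list, 9 were at least 2-fold higher and 0 lower, with a median log2 ratio of 1.36. Zcwpw1, which is also on the meiotic entry list, was among the 9. Prdm9, the methyltransferase that marks hotspots, stood at 243 CPM (230 to 257) against 45.1. Ccdc36, which encodes the break factor IHO1, stood at 131 CPM against 27.4, and Gm960, which encodes the SPO11 partner TOPOVIBL, at 53.6 against 11.9. Mei4 at 56.3 against 27.8 CPM and Tex15 at 1534 against 745 CPM were close to 2-fold. Rec114, a break factor at 106 against 84.8 CPM, and Ewsr1 were within 2-fold.

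Of 20 tested strand exchange genes (22 measured), 6 were at least 2-fold higher and 0 lower, with a median log2 ratio of 0.58. The 6 were Rad51ap2, Meiob, 4930432K21Rik, Hsf2bp, Dmc1 and Brca2. Dmc1, the meiotic recombinase, stood at 402 CPM (385 to 419) against 96.5. Hsf2bp, which brings BRCA2 to breaks, stood at 144 CPM against 25.5, and Brca2 itself at 524 against 196. The single-strand binding genes Rpa1 and Rpa2 stood at 40.5 against 71.3 and 207 against 331 CPM. Of 12 tested crossover genes (14 measured), 7 were higher and 0 lower. Hfm1, a meiotic helicase, stood at 141 CPM (132 to 152) against 12.4, and Msh5, which stabilises crossover intermediates, at 105 (96.5 to 114) against 13.9. Mlh3, which acts later in crossing over, stood at 20.1 against 38.4 CPM.

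Of 10 tested genes of the synaptonemal complex list, 8 were at least 2-fold higher and 0 lower, with a median log2 ratio of 1.54. Tesmin and 4930447C04Rik were among the 8, and a place on the list does not make a gene a part of the complex. Sycp3, of the lateral element, stood at 1296 CPM (1266 to 1326) against 276, and Sycp2 at 632 against 229. The central element genes Syce1, Syce2, Syce3 and Tex12 stood at 497, 1011, 291 and 683 CPM against 192, 331, 61.3 and 189. Sycp1 (1.34-fold) and Fkbp6 (1.10-fold) were the 2 within 2-fold. Of 17 tested cohesin and axis genes (18 measured), 5 were higher and 4 lower. The meiotic forms Rad21l and Smc1b and the axis genes Hormad1 and Hormad2 were among the 5, with Hormad1 at 684 CPM against 234. The cohesin loader gene Nipbl stood at 527 against 126 CPM. The mitotic counterparts Rad21, at 33.3 against 147 CPM, and Smc1a, at 48.4 against 169, were among the 4 lower. Of 11 tested genes of telomere attachment, 7 were higher and 2 lower, with the TERB1 partners Terb2 and Majin at 77.5 against 16.7 and 73.2 against 21.1 CPM. Ccdc155, which encodes the motor adaptor KASH5, stood at 79.5 CPM against 12.5.

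Of 20 tested genes of mitotic M phase, 14 were at least 2-fold lower and 1 higher, with a median log2 ratio of -1.88. The 1 higher gene was Bub1, a checkpoint kinase that also protects cohesion, at 610 CPM (589 to 631) against 277. Cdk1 stood at 48.4 CPM against 285, Ccnb2 at 37.0 against 199, Ccna2 at 87.8 against 470 and Cdc20 at 163 against 697. Top2a, which untangles DNA, stood at 1316 CPM against 1317. Of 19 tested S phase genes (20 measured), 2 were higher (Ccne2 and Gins2) and 2 lower (Tyms and Cdt1), with a median log2 ratio of 0.02. The deposited cell cycle call was S in 316 of 427 L_Z cells and in 57 of 654 differentiating spermatogonia. All these cells were sorted for a 4N DNA content, so the call names a transcript score and not ongoing DNA copying. The median S score was 0.220 against 0.170, and the median G2M score 0.170 against 0.321. The part of depth and free RNA in these calls was not tested, and they were not repeated on thinned counts. Of 16 tested DNA damage signalling genes (17 measured), 4 were higher, with Atr, a kinase of unpaired chromosome axes, at 358 against 120 CPM, and 1 lower. Of 5 tested genes (8 measured) of apoptosis and the p53 response, 0 were higher and 3 lower, Trp53, Bax and Ccng1. Of 14 tested genes (15 measured) of the m6A machinery, 0 were past 2-fold in either direction.

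**Figure D3:**
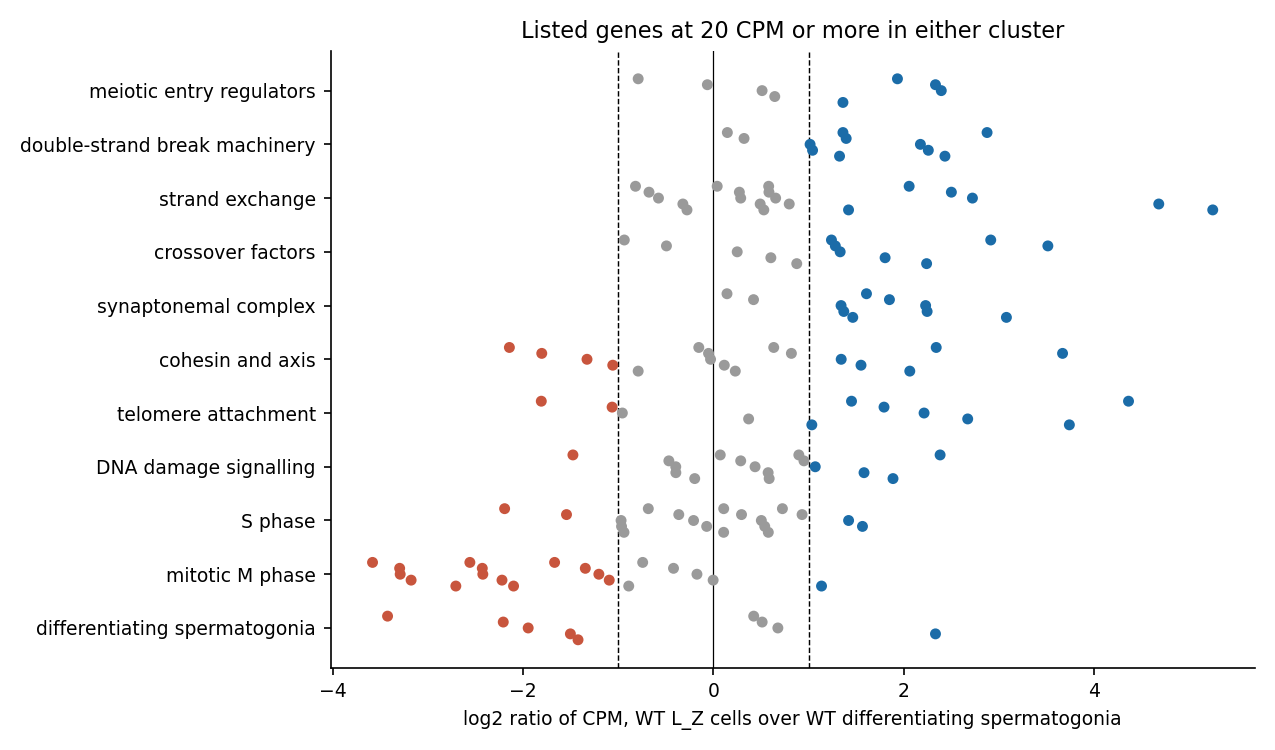
Log2 ratio of WT L_Z cells to WT differentiating spermatogonia for the genes of 11 lists that reached 20 CPM in either cluster, 1 point per gene. Blue points are at least 2-fold higher and red points at least 2-fold lower (dashed lines). To the left lie 14 of 20 M phase genes, and to the right 8 of 10 genes of the synaptonemal complex list.

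Transcription factors and markers of the neighbouring stages were also listed. Of 8 tested oocyte and other germline transcription factors (11 measured), 5 were higher and 1 lower. Besides Figla these were Eaf2 at 225 against 31.7 CPM, Dmrtc2 at 137 against 23.1, Taf4b at 274 against 104, and Mybl1, a regulator of pachytene genes, at 87.8 against 11. Of 9 tested markers of differentiating spermatogonia (10 measured), 5 were lower, namely Kit, Sohlh1, Dmrt1, Dmrtb1 and Uchl1, and 1, Stra8, was higher. Of the 10 measured markers of pachytene and later spermatocytes, 5 reached 20 CPM in L_Z cells, 2 had no UMI, Mybl1 was at least 2-fold higher and Pttg1 at least 2-fold lower. Of markers of other testis cells, the 10 measured Sertoli genes summed to 28.7 CPM (14.5 in differentiating spermatogonia), 7 myoid genes to 8.28 (2.27), 7 stromal genes to 6.63 (4.64), 2 Leydig genes to 6.63 (4.85), 1 macrophage gene to 0.368 (0.206) and 2 globin genes to 0.552 (0.619). The 2 endothelial genes summed to 37.4 CPM (47.1), nearly all of it Egfl7 at 37.2, and Pecam1 stood at 0.184. The 3 spermatid genes summed to 3.68 CPM (2.37) and the 11 of undifferentiated spermatogonia to 37.7 (85.6), with Foxo1, a transcription factor, at 29.6. Of all these genes, 2 Sertoli, 2 myoid, 4 stromal and 4 undifferentiated spermatogonial genes had no UMI in the L_Z cells.

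Set beside the KO cells of the mixed clusters, 230 of 6919 genes (3.32%) were at least 2-fold higher in L_Z cells than in both KO libraries and 816 (11.8%) were at least 2-fold lower. The median log2 ratio was -0.18 to KO A and -0.16 to KO B, and dividing by it gave 343 higher and 567 lower, so that the higher genes made up 37.7% of those past 2-fold in place of 22%. Genotype, library and cluster cannot be told apart here, since no KO cell is in the L_Z cluster. All 5 markers were higher than in both. The list of 14 leptotene-zygotene markers, which includes these 5, had 8 higher than in both and 0 lower. Stra8 stood at 1658 CPM in L_Z cells and at 1702 and 1705 in the mixed clusters of KO A and KO B. Eaf2 stood at 225 CPM against 26.4 and 27.6. Ccnb3, a cyclin of meiotic cells, stood at 72.3 CPM against 14.5 and 15.2, while in WT differentiating spermatogonia it stood at 42.2. Tex12 stood at 683 CPM against 227 and 241, and Syce3 at 291 against 73.4 and 86.7. By contrast Sycp3, at 1296 CPM in L_Z cells, stood at 762 and 1021, within 2-fold. Of the 20 M phase genes, 11 were lower in L_Z cells than in both KO libraries, and 0 higher. Cox8a, a respiratory chain subunit, stood at 51.2 CPM (45.3 to 57.5) in L_Z cells, at 159 in WT differentiating spermatogonia and at 591 and 585 in the KO mixed clusters. Most genes of its list did not share this. Of 20 respiratory chain genes, 2 were lower than in both KO libraries and 0 higher, against 11.8% and 3.32% of all tested genes. The list summed to 9171 CPM in L_Z cells and to 10555 and 10973 in the KO mixed clusters.

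Genes on the X chromosome, which is silenced later in meiosis, were not lower as a group in L_Z cells. Positions were matched by symbol for 13626 of 14103 genes. Of 244 X-linked genes at 20 CPM or more in either WT cluster, 42 (17.2%) were at least 2-fold higher in L_Z cells and 33 (13.5%) at least 2-fold lower, with a median log2 ratio of 0.01. The X chromosome held 2.61% of UMIs in L_Z cells and 2.31% in WT differentiating spermatogonia. Single X-linked genes lay far apart. Usp26, a deubiquitinase gene of the testis, stood at 207 CPM against 739, and Atrx, a chromatin remodeller, at 81.5 against 225, while Txlng, Maoa and Eras were 4.59-fold, 7.80-fold and 8.65-fold higher. Chromosome 8 had the lowest median of the autosomes, -0.27, with 20.5% of its tested genes at least 2-fold lower, and chromosome 1 the highest, 0.01.

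The spread among the L_Z cells was read for the more abundant genes. The Fano factor, the variance over the mean of thinned counts, is 1 for counting error alone. Its median over 1078 genes with a mean of at least 1 thinned UMI was 1.11, and 68 genes (6.31%) were above 1.5. The other genes with a UMI were too sparse to be included. Dazl, with 11 thinned UMIs in the median cell (2 to 25 over cells), had a Fano factor of 1.12. The 10 lowest ran from 0.789 for Mrpl20, a mitochondrial ribosomal protein gene, to 0.896 for Lamtor2.

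The largest spread belonged to chromatin genes, Stra8 and mitochondrially encoded genes. H3f3b had a Fano factor of 5.77, with 3 thinned UMIs in the lowest cell, 19 in the median cell and 68 in the highest. Hist1h1a, a linker histone gene, had 4.41, with 0, 3 and 27, and Hist1h2aa, a histone H2A gene, had 4.00, with 0, 2 and 16. H1fx, a further linker histone gene, had 2.78. Stra8 had 2.72, with 0, 8 and 25. Ptma had 4.12 and Arl6ip1, a membrane-shaping protein gene, 2.86, with 0, 1 and 18. Malat1 had 2.52, Tubb4b 2.31 and Gm42418, a predicted gene with sequence shared with ribosomal RNA, 3.22. The other 5 of the 15 were mt-Co1, mt-Co2, mt-Co3, mt-Atp6 and mt-Cytb, from 2.73 to 4.40. As a description over 427 cells of 1 library, thinned Hist1h1a and Hist1h2aa had a Pearson r of 0.74 on the ln(1 + count) scale. Each had an r of 0.58 and 0.60 with H3f3b, and 0.49 and 0.48 with Stra8.

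**Figure D4:**
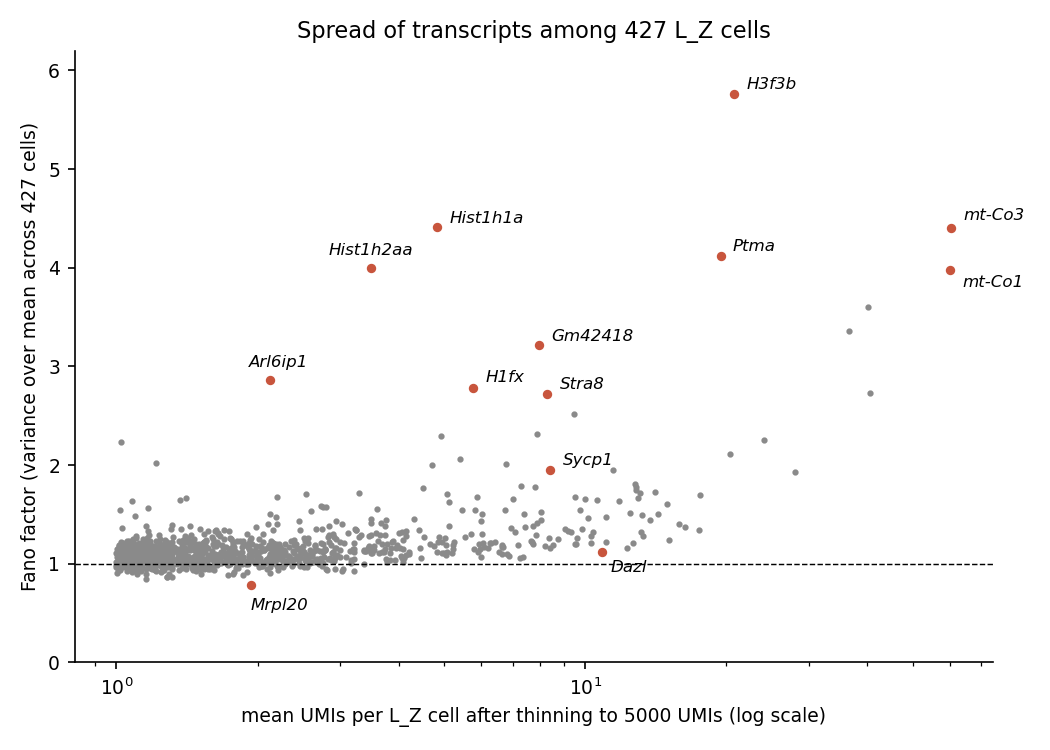
Fano factor against the mean thinned UMI count per cell (log axis) for 1078 genes in 427 L_Z cells, with the value of counting error alone as a dashed line. Most genes lie near 1, Dazl at 1.12 among them, and H3f3b at 5.77, Hist1h1a at 4.41 and Stra8 at 2.72 stand above genes of like mean.

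The leading axis of variation was the first principal component over 1000 of 5741 candidate genes, leaving out every gene of the lists, mitochondrially encoded genes and ribosomal protein genes. It held 3.43% of the variance, against 1.38% for the next axis, so most variance lay outside it. Its sign was set so that the end with more UMIs of the synaptonemal complex list was called the high end. Its 10 genes at the low end were Hsp90ab1, Atp5c1, Dut, Gapdh, Ptma, Mt1, Mif, Slc25a3, Actb and Tuba3b, genes of energy metabolism, the cytoskeleton and nucleotide supply among them. The 10 at the high end were H2-K1, Dnpep, Eif2s2, Larp1b, Inca1, H2-D1, Pbx3, Hspa5, Chchd6 and Stk25. The axis had a Pearson r of -0.50 with UMIs per cell and -0.61 with genes per cell. The median cell held 14806 UMIs in the first range of cells along it, 11634 in the middle and 11031 in the last, with 142, 142 and 143 cells. The part of cell size or depth in the axis was not tested. These ranges are cuts on a score and not cell types, and 60 cells lay near a cut.

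Listed genes, which did not make the axis though the synaptonemal complex list set its sign, lay along it in an order. From the first to the last range, Plk1 stood at 94.1, 11.2 and 3.08 CPM, Uchl1 at 149, 56.6 and 23.4, and Rec8 at 99.8, 57.8 and 20.3. Dmrt1, a transcription factor of spermatogonia, stood at 115, 57.2 and 31.4 CPM, and Dnmt1, the maintenance DNA methyltransferase, at 179, 121 and 63.5. In the other direction Meiob stood at 11.8, 50.1 and 109 CPM, a ratio of the last to the first range of 9.22 (6.05 to 14.6). Rad51ap2 stood at 53, 112 and 220 CPM, Hfm1 at 66.2, 141 and 240, and Msh5 at 54.4, 94.9 and 181. Terb1 stood at 69.1, 141 and 210 CPM, Mybl1 at 49.2, 76.0 and 150, and Sycp3 at 881, 1226 and 1909. These are named genes and not whole lists.

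Some transcripts were highest in the middle range. Stra8 stood at 1773, 2108 and 1036 CPM from the first to the last range. Hist1h1a stood at 994, 1364 and 457 CPM and Hist1h2aa at 601, 1035 and 338, though these 2 histone genes helped to make the axis. Rad21l stood at 91.8, 195 and 177 CPM. Some gene lists had an order as sums and others had none. The 10 genes of the synaptonemal complex list summed to 6014, 7333 and 9771 CPM, a direction fixed in advance because this list set the sign of the axis. The 5 markers summed to 253, 496 and 735 CPM. The 10 measured markers of differentiating spermatogonia, Stra8 among them, summed to 2642, 2761 and 1558 CPM, and those of Sertoli cells to 17.0, 36.5 and 35.7. The M phase list showed no such order at 5263, 4104 and 4899 CPM. Bub1 stood at 450, 546 and 883 CPM within it, against the order of Plk1.

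**Figure D5:**
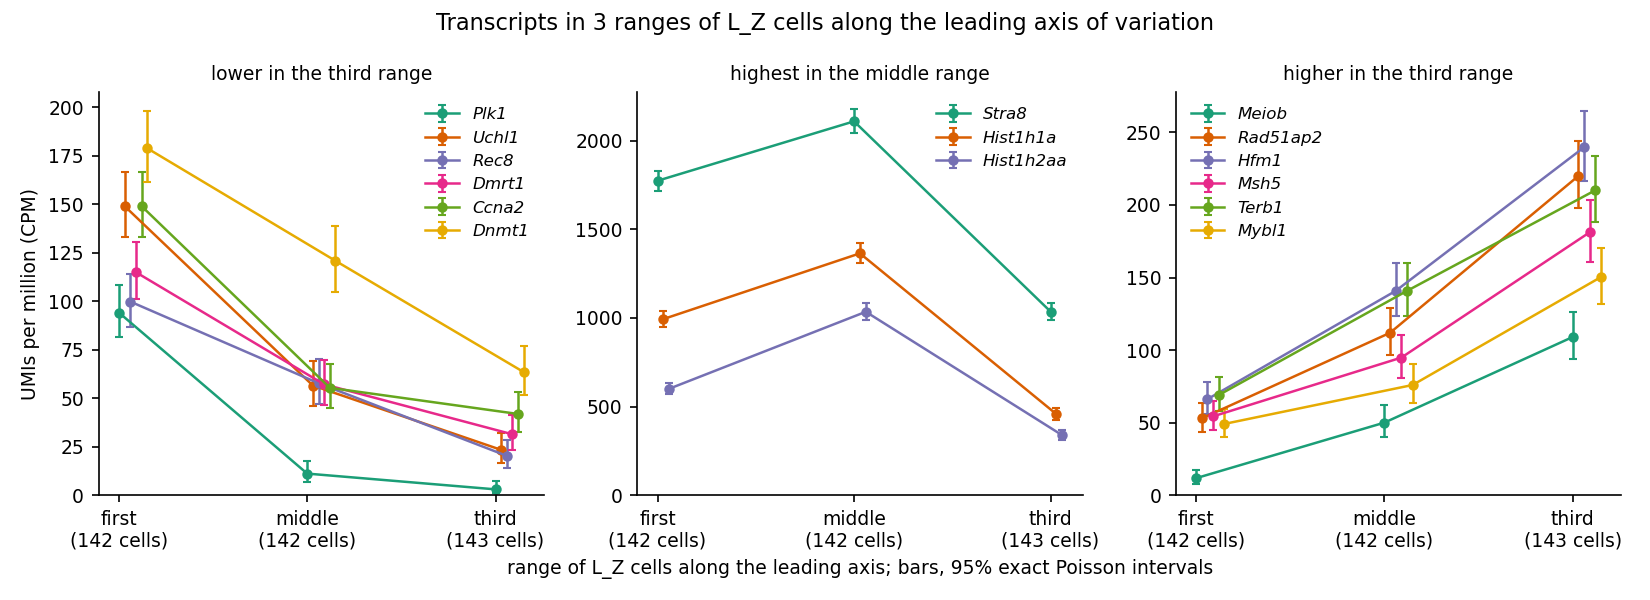
Level (CPM, linear axis) of 15 transcripts in the 3 ranges of L_Z cells along the leading axis, with 95% exact Poisson intervals as bars. Plk1 went from 94.1 to 3.08 CPM and Meiob from 11.8 to 109, while Stra8, Hist1h1a and Hist1h2aa were highest in the middle range.

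Genes whose levels were most like those of each marker were found by the Pearson correlation of log2(CPM + 1) over the 12 sums, which share 3 libraries. The most alike were Trim52 for Meiob (r 0.98), Sec22b for Rad21l (0.97), Cdip1 for Rad51ap2 (0.97), Adad1, a germ cell gene, for Spo11 (0.93) and Pphln1 for Figla (0.95). The next were Txlng, Gpr137c, Ssu72 and Taf11 for Meiob, and Tmem199, Nek1, Tsga10 and Inca1 for Rad21l. For Rad51ap2 they were Tiparp, Zfand5, Senp8 and Aff4, and for Spo11 Nosip, Pet2, Ankrd31 and Dnpep. For Figla they were Emc6, Cs, Gt(ROSA)26Sor and M6pr. With 12 sums and 6098 genes to choose from, these are names only.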

How the data were processed

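The authors deposited natural log values, ln(1 + count/size factor), and a cell table with each cell's cluster, library, size factor (a score), phase scores, and UMI and gene counts and mitochondrial fraction. The deposited log2 summary of U-motif genes per cell and the motif score per gene are not reported. Per the submitters' processing notes, Cell Ranger 3.0.2 and Scanpy were used, with mm10/GRCm38. Undoing the scaling gave whole numbers for 100% of values within 0.001 (relative) and 99.94% of the deposited UMIs. Every cell held at least 3000 genes. Counts were summed by library and cluster (sums of at least 20 cells) and given as CPM with exact Poisson intervals and exact conditional binomial intervals of ratios, in Python 3.11.15 with SciPy 1.17.1. With 1 WT library no test was run. Scrublet in Scanpy 1.11.5 called doublets per library, and they were kept. Cells were thinned 1 time to 5000 UMIs. The scripts were tested on simulated counts.

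Named genes were the 5 markers, listed genes at 20 CPM or more, the 20 most abundant, the 15 highest and 15 lowest ratios and the 20 most specific at 50 CPM or more, the 15 highest and 10 lowest Fano factors, 10 at each end of the axis, and 5 most like each marker. Single X-linked genes, Cwc15, Snx15, Eaf2 among the specific genes, members under 20 CPM named for a count, and the MHC and oocyte genes below were chosen after their values were seen. Members and lists were chosen with earlier results of these data known. The bulk RNA-seq and iCLIP samples were not analysed here. Some listed genes are not reported here.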

Additional observations from a re-analysis of the deposited data

How the results depend on the processing

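No paired analysis was possible because the L_Z cells come from 1 WT library and no test was run. The count of genes at least 2-fold lower than in WT differentiating spermatogonia (1088) went to 1850 with a minimum of 5 CPM, 574 with 50 CPM, and 689 where the nearer interval bound had to pass 2-fold. The minimums of 5 and 50 CPM left 9482 and 4683 genes tested, in place of 6952. With 50 CPM the higher genes made up 51.6% of those past 2-fold, in place of 43.6%. Against both KO libraries, 230 higher and 816 lower went to 376 and 1536 with 5 CPM, 160 and 379 with 50 CPM, and 141 and 445 with the interval bound. Here the minimums of 5 and 50 CPM left 9414 and 4652 genes tested, in place of 6919. The count of higher genes in WT (842) stayed between 612 and 1208 under all 8 alternatives. Leaving out the sum of 24 WT cells, an alternative chosen after seeing the data, took the specific genes from 38 to 87. The median Fano factor of 1.11 was 1.06 at 2500 UMIs and 1.22 on count over size factor. The axis held 4.89% of variance over 500 genes, 2.50% over 2000 and 3.46% without the doublet, and its r with the axis reported was at least 0.99 in each. Of 47 named genes past 2-fold, 0 changed direction under 5 alternatives. Many were named for extreme ratios in these same cells, so a change of direction was unlikely. The sizes moved more. Of the log2 ratios of 64 named genes, 27 left their counting interval with thinning and 22 with the median division. With size factors 17 left it, and against all other WT cells 16 did. Without doublets all 64 stayed within it.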

Other observations

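H2-Ab1, H2-D1 and H2-K1 were among the named genes of the L_Z cells, so other genes of the MHC were read as well, a choice made after these values were seen. H2-K1, an MHC class I heavy chain, stood at 1008 CPM (exact Poisson interval 981 to 1035) in L_Z cells and 199 in WT differentiating spermatogonia, with a UMI in 427 of 427 L_Z cells. B2m, the class I light chain, stood at 29.1 CPM (24.7 to 34.0) against 6.70, and was seen in 128 of 427 cells. It was higher elsewhere, at 130 CPM in WT undifferentiated spermatogonia and at 60.8 and 62.0 in the second mixed clusters of KO A and KO B. Of the 45 WT undifferentiated spermatogonia, 10 reached 10 UMIs over the myoid, stromal and globin markers, and their part in this level was not tested. Other class I genes were low, with H2-T23 at 4.78 CPM, H2-Q6 at 4.78 and H2-T22 at 0 UMIs. Tap1, of the peptide transporter, had 0 UMIs, and Tap2 stood at 3.50 CPM and Tapbp at 9.02. H2-DMa, a class II peptide editor, stood at 29.1 CPM against 4.54, and H2-Eb1, a further class II beta chain, at 2.02. Of 8 class II genes sought, 3 were measured, and H2-Aa and Cd74 were not. Of 9 MHC regulator and peptide loading genes, 6 were measured, and Ciita and Nlrc5 were not. Irf1 was lower at 1.10 CPM against 4.95, and Psmb10 at 8.28 against 23.8. Tap2 and Tapbp stood at 0.619 and 2.47 CPM in WT differentiating spermatogonia, below their L_Z levels. Of 7 macrophage markers sought, 1 was measured, at 0.368 CPM in the L_Z cells, and Csf1r, C1qa and Ptprc were among those not measured.

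Along the leading axis, which H2-K1, H2-D1 and H2-Ab1 helped to make, H2-K1 stood at 597, 1071 and 1477 CPM, H2-D1 at 92.7, 253 and 399, and H2-Ab1 at 64.8, 133 and 157. H2-D1 was 37.0 and 39.9 CPM in the mixed clusters of KO A and 72.6 and 68.0 in those of KO B. Several class I genes share long stretches of sequence, so how UMIs were split among them is uncertain. Of oocyte genes, Zp3 stood at 16.7 CPM against 17.5 in WT differentiating spermatogonia, Nobox at 11.2 (8.59 to 14.4) against 1.44, and Gdf9 had 0 UMIs in L_Z cells.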
